A study of Homo sapiens with 8 samples.

Results

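The insulin-like growth factor (IGF) family genes described here are the 7 IGF-binding proteins IGFBP1 to IGFBP7, the receptors IGF1R and IGF2R and the ligand IGF2. They were chosen by gene symbol, with earlier results of these data known, and all 10 are among the 43682 symbols of the RNA count tables. The RNA came from UM-RC-2, an established line of clear cell renal cell carcinoma whose own VHL gene carries p.Arg82Pro per the labels. The groups were UM-RC-2 cells expressing VEC, named only so in the labels, and UM-RC-2 cells expressing VHL. Both constructs were carried stably after lentiviral infection and selection in 10 µg/ml blasticidin, and all cells grew in medium with fetal bovine serum. Each group had 2 libraries, numbered 1 and 2 in the titles. The series also profiled H3K27ac in UM-RC-2 and 786-O cells, which is not analysed here. Whether the cells were clones or pools, and whether the numbers mark separate cultures, is not given in the sources used here, so the spread between libraries may be technical.

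IGF ligands bind IGF1R, a receptor tyrosine kinase that signals through insulin receptor substrates and AKT. IGF2R, which is also the cation-independent mannose 6-phosphate receptor, takes up IGF2 and carries it to lysosomes without such signalling. The binding proteins are secreted and hold IGFs outside the cell, where proteases release them, while IGFBP7 binds IGFs only weakly. VHL is the part of a ubiquitin ligase that recognises hydroxylated hypoxia-inducible factor (HIF), and IGFBP3 and IGFBP1 are known as genes that HIF can induce.

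IGFBP3 and IGFBP5 were the members that fell with VHL once the replicate number was taken into account. With group as the only term of the edgeR fit, 0 members and 0% of all tested genes passed the test. The RNA of IGFBP3 was 8.85-fold lower in VHL cells in replicate pair 1 and 7.49-fold lower in pair 2. IGFBP5 was about as much lower, but from few counts, and it passed in fewer of the fits than IGFBP3. IGFBP2, IGFBP4, IGFBP6, IGFBP7, IGF1R and IGF2R passed no test, IGFBP1 was almost without counts, and IGF2 was listed at 0.

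The bases just before the transcription starts are shown for IGFBP3 and IGFBP5, which fell, and for IGF2R, which was not called. They come from RefSeq on GRCh38.p14, where 7 of the 10 members were matched (IGFBP2 with several starts), and each covers the 250 bases before a start on the strand of the gene. Capitals mark ACGTG or GCGTG, the core letters of the HIF binding motif, on either strand.
IGFBP3, chr7:45921273-45921522, minus strand: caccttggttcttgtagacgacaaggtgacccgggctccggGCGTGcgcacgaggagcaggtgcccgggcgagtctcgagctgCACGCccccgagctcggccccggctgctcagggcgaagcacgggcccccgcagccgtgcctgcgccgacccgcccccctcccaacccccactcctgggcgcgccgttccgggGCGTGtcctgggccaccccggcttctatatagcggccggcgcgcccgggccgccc
IGFBP5, chr2:216695550-216695799, minus strand: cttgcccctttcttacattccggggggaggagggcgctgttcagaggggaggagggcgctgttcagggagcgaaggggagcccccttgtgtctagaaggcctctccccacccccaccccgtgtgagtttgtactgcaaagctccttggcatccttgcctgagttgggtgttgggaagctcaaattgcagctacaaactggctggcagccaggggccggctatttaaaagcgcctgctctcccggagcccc
IGF2R, chr6:159968832-159969081, plus strand: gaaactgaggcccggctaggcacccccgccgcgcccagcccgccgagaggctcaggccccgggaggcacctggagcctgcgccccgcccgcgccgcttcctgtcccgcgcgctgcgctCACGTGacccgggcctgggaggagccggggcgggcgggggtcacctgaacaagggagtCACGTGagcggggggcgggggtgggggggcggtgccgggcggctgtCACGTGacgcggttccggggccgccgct
The IGFBP3 window held 3 matches, all GCGTG and 1 of them on the opposite strand, whose first bases lie 209, 167 and 55 bases before the start. The IGFBP5 window held 0 matches. The IGF2R window held 6 matches of ACGTG at 3 places, because each place reads CACGTG and matches on both strands. Of the windows of the other matched members, that of IGF1R held 5 matches, 1 of the 3 windows of IGFBP2 held 1, and those of IGFBP4 and IGFBP6 held 0. Among 35116 RefSeq windows of this length, 43.2% held at least 1 match, 18.5% for ACGTG and 32.2% for GCGTG. Matches were present and absent among called and uncalled members alike, and a link between matches and calls was not tested. A match is a description of the letters and not evidence of binding.

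The libraries differed far more by replicate number than by group. Across genes, log2(CPM + 1) correlated at 0.991 and 0.978 within the pairs but at 0.504 (VEC) and 0.534 (VHL) between the replicates of a group, as a description of the libraries. The labels give total RNA as the molecule of both replicate 1 libraries and polyA RNA for both replicate 2 libraries, and the names of the alignments also differ in form. Total counts were 16230291 to 21306867 in replicate 1 and 46609709 to 50027348 in replicate 2, and protein-coding genes took 95.5% to 96.0% of them in replicate 1 and 65.6% to 71.8% in replicate 2. Selection for polyA usually raises the protein-coding share, so these shares run against the molecule labels. The shares also depend on how reads were aligned and counted. Some noncoding symbols had a pair 1 log2 change of 0 beside a sizeable mean level, such as CYCSP45 (48.4 CPM) and RPS17P1 (25.5 CPM). Whether the labels are exchanged, or reads were handled differently between the replicates, was not tested and cannot be told from the sources used here. Values were therefore compared within each replicate pair, and the edgeR quasi-likelihood test was fitted with group as its only term and again with the replicate number as a block. Levels are CPM, that is counts per 1000000 on TMM-scaled library sizes, and a call is a Benjamini-Hochberg adjusted p under 0.05 over all 24417 tested genes. As a check of the labels, VHL was at 37.1 CPM (VEC) and 146 CPM (VHL) in replicate 1, and at 88.9 and 151 CPM in replicate 2. CA9, a carbonic anhydrase and HIF target, measured 67.5 and 1.55 CPM, and 61.8 and 1.40 CPM. Of 10 markers of renal epithelium and clear cell carcinoma, 9 exceeded 1 CPM in every library and KRT19 was at 0. The 4 endothelial markers were at 0 in every library, and 5 fibroblast and pericyte markers summed to between 0 and 0.49 CPM. Of 4 leukocyte markers, CD3E and CD79A were at 0, PTPRC was at 0 in replicate 1 and at 1.54 to 1.58 CPM in replicate 2, and CD68, which is not confined to leukocytes, measured 11.6 to 42.2 CPM.

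With group as the only term, 0 of the 8 tested members were called, and 1 had an unadjusted p under 0.05 (IGFBP3). The background in that fit was 0% of all genes, with 22 genes at an unadjusted p under 0.05 in edgeR and 6 genes called by DESeq2. With the replicate block, 2 of the 8 tested members were called, both lower. In that fit 3.1% of all tested genes were called, 2.35% lower and 0.749% higher. The members were chosen with earlier results of these data known, so setting their counts beside such shares is a description only. Among protein-coding genes alone, a gene set nearer in kind to the members, the blocked fit called 7.15% (4.63% lower and 2.52% higher), and the 2 members called were the same. The blocked fit rests on 1 residual degree of freedom and the group-only fit on 2. With so few, edgeR estimates variance largely by borrowing across all genes. The SEs and p-values of the blocked fit therefore do not measure a gene's own spread between the pairs. IGF1R, with pair log2 changes of 0.45 and -0.10, had a blocked SE of 0.23, and INSR, with -0.22 and -0.17, had 0.21. IGFBP1 and IGF2 did not pass the filter on low counts and were not tested.

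IGFBP3 encodes the main carrier of IGFs in blood. In replicate 1 it was counted 3009 times with VEC and 274 times with VHL, and in replicate 2 the counts were 2350 and 281. The levels were 130 CPM (VEC) and 14.7 CPM (VHL) in replicate 1, and 51.5 and 6.88 CPM in replicate 2. Both VHL libraries lay below both VEC libraries, but how many of all genes separate in this way was not counted. In RNA from whole cultures, fewer cells that express a gene and less RNA per cell cannot be told apart.
The pair ratios were 8.85-fold lower (95% exact interval 7.82 to 10.1) and 7.49-fold lower (6.62 to 8.51) in VHL, where the intervals cover counting error only. Without the block the fitted log2 change was -3.07 ± 0.88 (SE, n = 2 per group, edgeR adjusted p = 0.999991). With the block it was -3.02 ± 0.23 (edgeR adjusted p = 4.28e-35), and the p-value of IGFBP3 was number 5 from the smallest of all genes tested. That p-value rests on variance borrowed across genes and not on the spread of IGFBP3 alone.

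IGFBP5, a binding protein that also attaches to extracellular matrix, was counted 14 times with VEC and 1 time with VHL in replicate 1, and 51 and 6 times in replicate 2. These are 0.605 and 0.0536 CPM in replicate 1, and 1.12 and 0.147 CPM in replicate 2. The groups did not overlap, but all 4 levels were low, and the share of all genes without overlap was not counted.
The pair 1 ratio was 11.3-fold lower in VHL with an exact interval of 1.72 to 477, and the pair 2 ratio was 7.61-fold lower (3.27 to 21.7). With the block its log2 change was -3.03 ± 0.86 (SE, n = 2 per group, edgeR adjusted p = 0.0215), against -3.03 ± 1.51 without the block (edgeR adjusted p = 0.999991). With a mean under 50 counts it is not tested under the stricter filter, and the blocked DESeq2 fit gave it no adjusted p (unadjusted p = 0.00557).

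**Figure D1:**
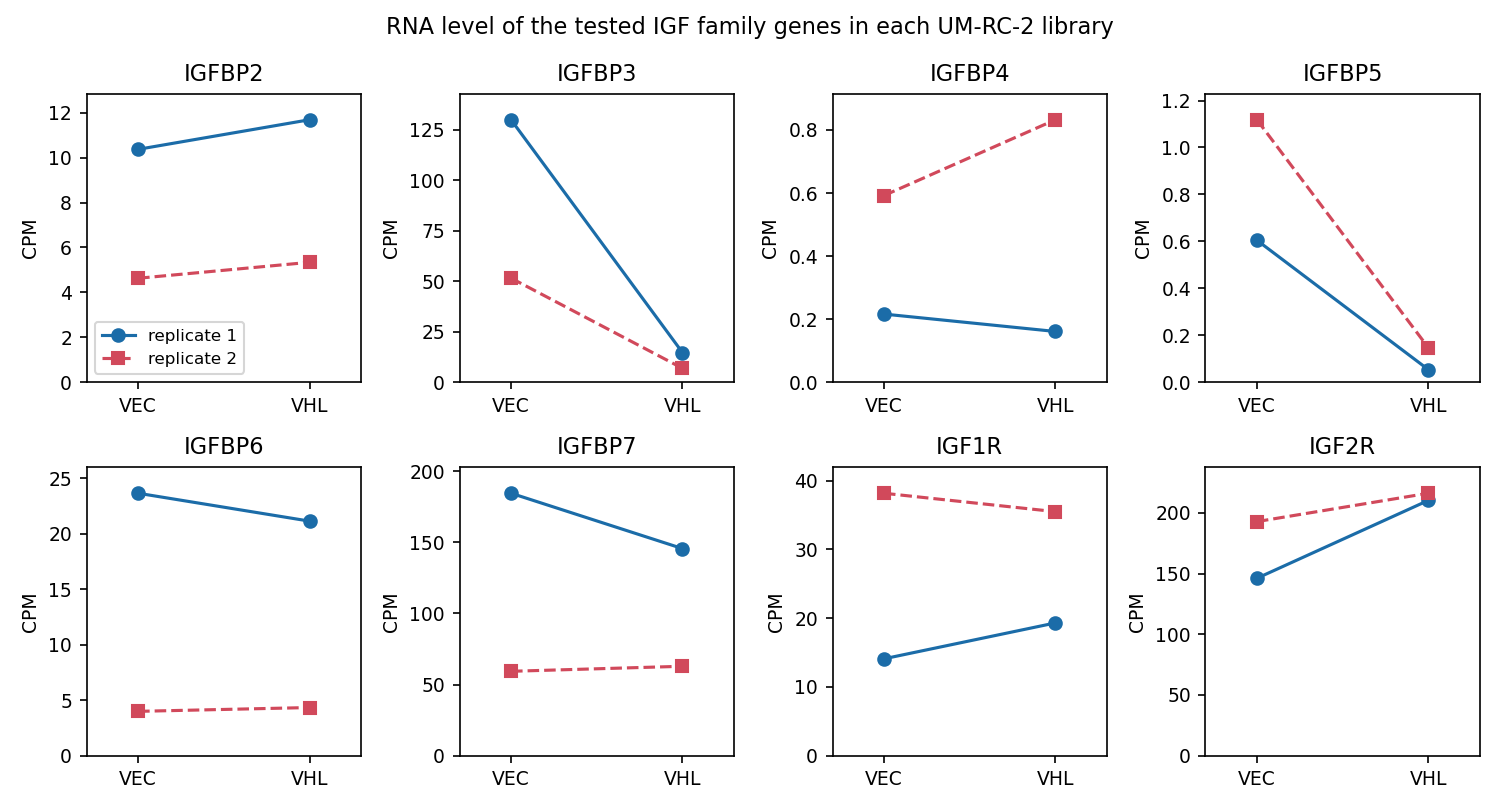
CPM (vertical axis, linear from 0, its own scale in each panel) of the 8 tested IGF family genes in VEC and VHL libraries, with a line joining the libraries of the same replicate number. IGFBP3 and IGFBP5 go down in both pairs, from 130 to 14.7 CPM and from 51.5 to 6.88 CPM for IGFBP3. The lines of the other genes are flatter. The VHL libraries of IGF2R, at 210 and 216 CPM, lie above both VEC libraries on these TMM sizes. IGF2R was not called, and the share of all genes with this order was not counted. Over protein-coding counts its pair 2 log2 change was -0.02.

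The remaining binding proteins gave small and mostly mixed differences. IGFBP2, a binding protein with an integrin-recognition motif, measured 10.4 CPM (VEC) and 11.7 CPM (VHL) in replicate 1, and 4.63 and 5.34 CPM in replicate 2. The replicate 2 libraries were both lower than the replicate 1 libraries, and the VHL library was slightly higher in each pair. Its blocked log2 change was 0.19 ± 0.31 (SE, n = 2 per group, edgeR adjusted p = 0.944).
IGFBP4, a substrate of the protease PAPPA, had 5 and 3 counts in replicate 1 and 27 and 34 in replicate 2 (VEC and VHL). Its pair 1 interval ran from a ratio of 0.116 to 3.83, so its direction was not detectable at this depth. IGFBP6, which binds IGF2 in preference to IGF1, measured 23.6 and 21.1 CPM in replicate 1 and 3.99 and 4.33 CPM in replicate 2. Its direction differed between the pairs, and both count-ratio intervals included 1 (0.783 to 1.02 and 0.878 to 1.34).
IGFBP7, the low-affinity member, measured 184 CPM (VEC) and 146 CPM (VHL) in replicate 1, and 59.3 and 62.8 CPM in replicate 2. The ratios of VHL to VEC were 0.789 (0.752 to 0.828) and 1.06 (1.00 to 1.12), so the pairs differed by more than counting error. The direction in pair 2 depended on scaling, with a log2 change of 0.08 on TMM sizes and -0.10 when CPM was taken over protein-coding counts. The blocked log2 changes were 0.24 ± 0.77 for IGFBP4, -0.03 ± 0.28 for IGFBP6 and -0.13 ± 0.22 for IGFBP7, with edgeR adjusted p-values of 0.982, 0.996 and 0.948.

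IGFBP1, a binding protein made mainly in liver and a known HIF target, had 0 counts in 3 libraries and 2 in VEC of replicate 2. No direction can be read from it. A count of 0 allows up to 0.130 and 0.161 CPM in VEC and VHL of replicate 1, and 0.0734 CPM in VHL of replicate 2, taking 3 counts as the limit.

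IGF1R, the signalling receptor, had 326 and 360 counts in replicate 1 and 1740 and 1449 in replicate 2 (VEC and VHL). Its levels were 14.1 and 19.3 CPM, and 38.2 and 35.5 CPM. Replicate 2 was higher in both groups, and the groups overlapped. The ratio of VHL to VEC was 1.37 (1.18 to 1.60) in pair 1 and 0.930 (0.867 to 0.998) in pair 2, and the blocked log2 change was 0.16 ± 0.23 (SE, n = 2 per group, edgeR adjusted p = 0.929). The size of the pair 2 change depended on scaling, at a log2 change of -0.10 on TMM sizes and -0.29 over protein-coding counts.
IGF2R, the clearance receptor, measured 146 and 210 CPM in replicate 1 and 193 and 216 CPM in replicate 2. Both VHL libraries lay above both VEC libraries on TMM sizes, and the share of all genes that do so was not counted. The ratios were 1.44 (1.37 to 1.51) and 1.12 (1.09 to 1.15), and the blocked log2 change of 0.34 ± 0.23 was not called (SE, n = 2 per group, edgeR adjusted p = 0.637). The pair 2 difference also depended on scaling, at 0.16 on TMM sizes and -0.02 over protein-coding counts.

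IGF2, the ligand, was listed at 0 in all 4 libraries, as were INS-IGF2 and IGF2-AS, which overlap it. A 0 allows between 0.0658 and 0.161 CPM by library. featureCounts, named in the submitters' processing notes, by default leaves out reads that fall in more than 1 gene, and whether it did so here is not stated, so a 0 for IGF2 does not show that the transcript was absent. Of 259 protein-coding genes whose symbols form part of a listed read-through symbol, 48 (18.5%) were at 0 in all 4 libraries, against 14.0% of all 19253 protein-coding symbols. The antisense genes in IGF2R (AIRN), IGF1R (IRAIN) and IGFBP7 (IGFBP7-AS1) had at most 10 counts in a library, and no source used here says whether strand was used.

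**Figure D2:**
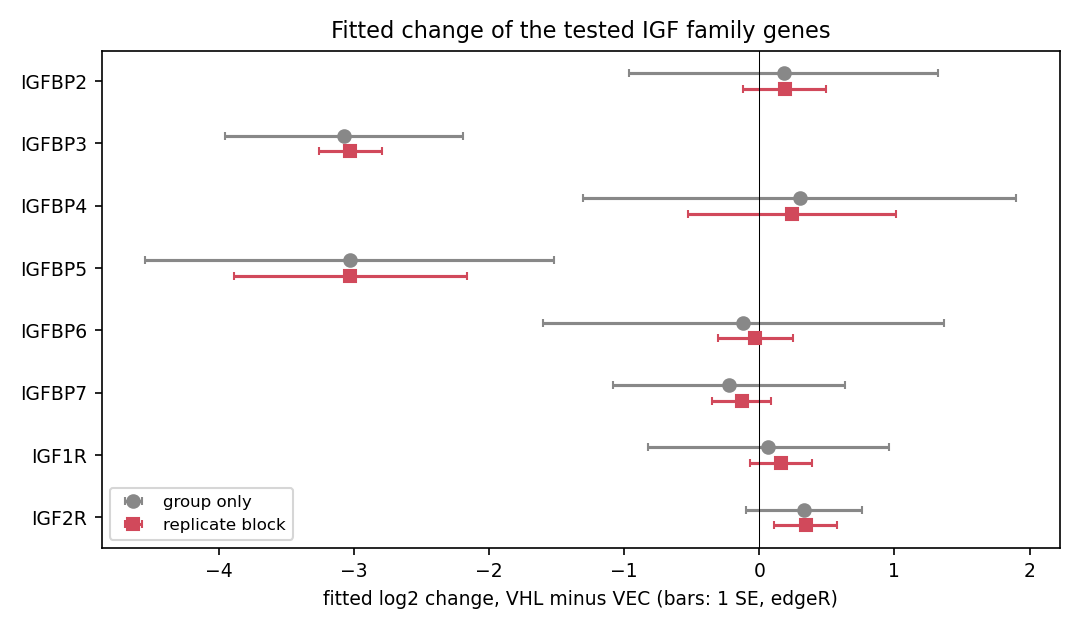
Fitted log2 change (horizontal axis, VHL minus VEC) of the 8 tested IGF family genes, with bars of 1 SE, in the group-only fit (grey circles) and in the fit with the replicate block (red squares). The estimates of both fits lie close together, at -3.07 and -3.02 for IGFBP3, and the bars shorten with the block, from 0.88 to 0.23 for IGFBP3.

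Binding proteins and receptors were then set side by side. Over the 6 tested binding proteins the median of the log2 changes was -0.17 without the block and -0.08 with it, with 4 lower and 2 higher in each. Over the 2 tested receptors it was 0.20 and 0.25, with both higher, although the change of IGF1R without the block turned to -0.0068 with DESeq2 size factors and to -0.025 with protein-coding genes alone. Over all tested genes the median was -0.03 in both fits. Within pairs, the binding proteins had medians of -0.33 and 0.10 and the receptors 0.49 and 0.03, so the order of the groups seen in pair 1 was turned in pair 2. On TMM sizes, IGFBP3 and IGFBP5 were lower in both pairs, IGFBP2 and IGF2R were higher in both, and IGFBP4, IGFBP6, IGFBP7 and IGF1R had opposite signs in the pairs. Over protein-coding counts, IGFBP6 and IGFBP7 were lower in both pairs and IGF2R had opposite signs. Of the 6 tested binding proteins, 0 were called in the group-only fit and 2 in the blocked fit. The blocked fit called 3.1% of all tested genes, and 7.15% when protein-coding genes alone were tested. The other 4 binding proteins had blocked log2 changes between -0.13 and 0.24.

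Ratios of counts within a library need no scaling between libraries. For every 100 counts of IGF2R, IGFBP3 had 89.0 with VEC and 6.99 with VHL in replicate 1, and 26.7 and 3.18 in replicate 2. Against IGF1R, the values were 923 and 76.1, and 135 and 19.4. The log2 change of the ratio to IGF2R was -3.67 and -3.07 in the pairs, and that of the ratio to IGF1R was -3.60 and -2.80. Against IGFBP7, IGFBP3 went from 70.5 to 10.1 counts per 100 and from 86.9 to 11.0. Against IGFBP5, which also fell, the log2 changes of the ratio were 0.35 and 0.02. They rest on 1 and 6 counts of IGFBP5 in the VHL libraries, too few to compare the size of the 2 falls. These ratios compare a change between genes and not their abundance, since transcript lengths were not used.

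**Figure D3:**
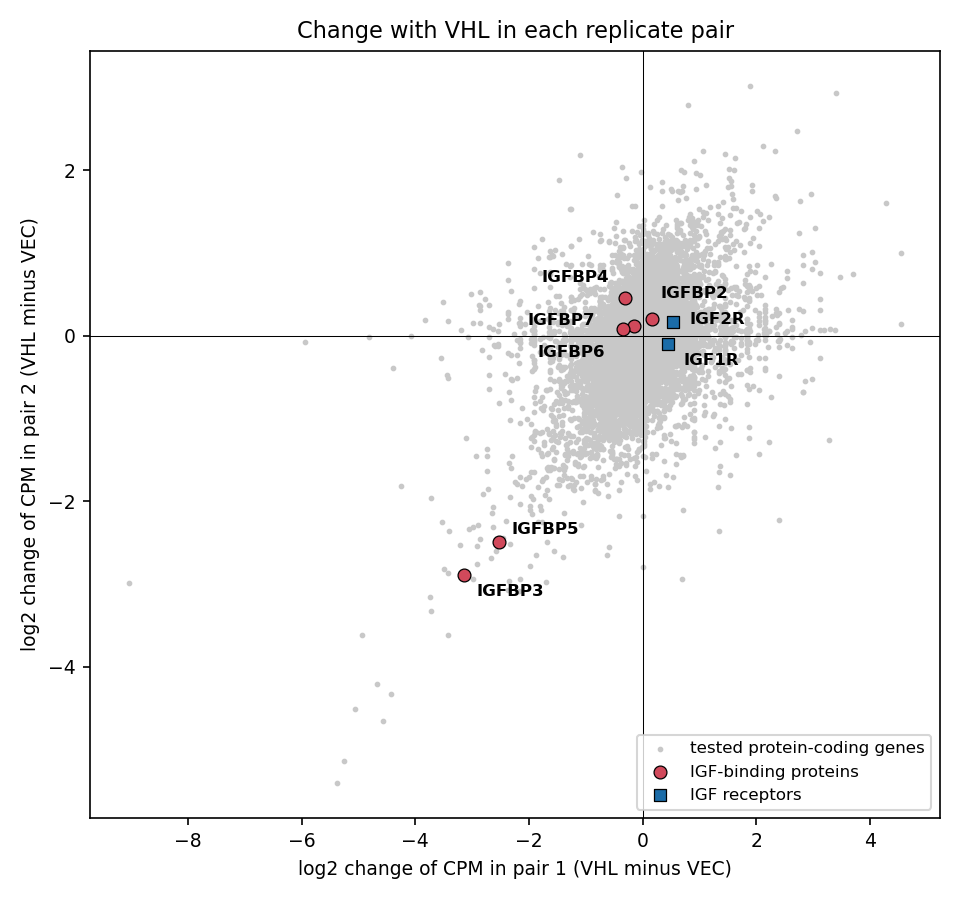
Log2 change of CPM (prior count 2) from VEC to VHL in pair 1 (horizontal axis) and pair 2 (vertical axis) for tested protein-coding genes (grey), IGF-binding proteins (red circles) and IGF receptors (blue squares). IGFBP3, at -3.14 and -2.89, and IGFBP5, at -2.52 and -2.50, stand in the lower left, and the other 6 lie near the origin among the bulk of genes.

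The genes of both called members sit beside another binding protein gene. In the RefSeq order, IGFBP1 and IGFBP3 are adjacent protein-coding genes on chromosome 7, and IGFBP2 and IGFBP5 are adjacent on chromosome 2. Next to IGFBP3 on its other side is TNS3, which encodes a tensin, with 55.0 and 52.3 CPM in replicate 1 and 25.3 and 22.0 CPM in replicate 2. Its blocked log2 change was -0.14 ± 0.22 (SE, n = 2 per group, edgeR adjusted p = 0.941). That of ADCY1, an adenylate cyclase gene beyond IGFBP1, was 0.22 ± 0.23 (edgeR adjusted p = 0.863). On chromosome 2, IGFBP2 was not called beside IGFBP5, and TNP1, next to IGFBP5, was at 0 in every library. RPL37A, next to IGFBP2, was lower in both pairs (log2 changes -0.59 and -0.33) but was not called. Its blocked log2 change was -0.46 ± 0.24 (edgeR adjusted p = 0.431). Further out, the blocked log2 changes were 0.10 ± 0.28 for SMARCAL1 and -0.23 ± 0.24 for TNS1 (edgeR adjusted p = 0.980 and 0.842). The falls were thus measured in 1 gene of each adjacent pair, and whether IGFBP3 and IGFBP1 differ in response cannot be told, because IGFBP1 had too few counts.

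Other genes of the pathway were read from a list of 36, covering further ligands and receptors, proteases and their inhibitors, adaptors, the PI3K and AKT kinases with FOXO factors, IGF2 mRNA-binding proteins and mannose 6-phosphate sorting genes. Of the 30 tested, 0 were called in the group-only fit (1 at an unadjusted p under 0.05 in edgeR, and 1 called by DESeq2) and 2 in the blocked fit, both lower, where 3.1% of all tested genes were called (2.35% lower). The 6 listed genes without a test, for low counts, were INS, INSRR, IGFALS, IGFBPL1, PAPPA2 and IRS4. The list had a median log2 change of 0.05 without the block and 0.07 with it. It too was chosen with earlier results of these data known.
The 2 were STC1 and STC2, which encode the stanniocalcins, inhibitors of the IGFBP-cleaving proteases PAPPA and PAPPA2. STC1 measured 46.4 (VEC) and 1.45 (VHL) CPM in replicate 1 and 29.4 and 2.33 CPM in replicate 2, and its blocked log2 change was -4.22 ± 0.29 (SE, n = 2 per group, edgeR adjusted p = 2.50e-42). STC2 measured 125 and 39.4 CPM, and 68.4 and 22.7 CPM, with a blocked log2 change of -1.63 ± 0.22 (edgeR adjusted p = 3.61e-11).
Both VHL libraries lay below both VEC libraries for each of these genes, an order whose share among all genes was not counted. PAPPA itself measured 62.7 and 82.3 CPM, and 47.4 and 57.5 CPM, and was not called (blocked log2 change 0.34 ± 0.21, edgeR adjusted p = 0.584), and PAPPA2 was at 0 in every library.

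Beyond STC1 and STC2, 0 of the tested genes of the list were called in the blocked fit over all genes. INSR, the insulin receptor, which can pair with IGF1R, changed by -0.22 and -0.17 on the log2 scale in the pairs (blocked edgeR adjusted p = 0.864). The insulin receptor substrates IRS1 and IRS2 had log2 changes of 0.01 and 0.57 (IRS1) and of -0.31 and -0.31 (IRS2) in the pairs. Neither was called with the block (edgeR adjusted p = 0.835 and 0.837). AKT1 and AKT2 had log2 changes of -0.16 and -0.10 in pair 1 and of -0.49 and -0.45 in pair 2, and neither was called. When protein-coding genes alone were tested with the block, 5 of the 30 genes of the list were called, against 7.15% of all genes in that fit, which added HTRA1, GRB14 and GNPTG, all lower (edgeR adjusted p = 0.00703, 0.00367 and 0.0321). HTRA1, a secreted protease that can cleave IGFBP5, had been just short of a call over all genes (edgeR adjusted p = 0.0537), at 79.4 and 53.4 CPM in replicate 1 and 34.8 and 20.4 CPM in replicate 2. GRB14, an adaptor that binds the insulin receptor, measured 166 and 98.5 CPM in replicate 1 and 50.2 and 34.2 CPM in replicate 2. GNPTG measured 14.7 and 11.2 CPM, and 4.19 and 1.40 CPM, so its log2 changes in the pairs were unlike, at -0.39 and -1.54. Blocked DESeq2 called HTRA1 and GRB14 but not GNPTG (DESeq2 adjusted p = 0.527).

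**Figure D4:**
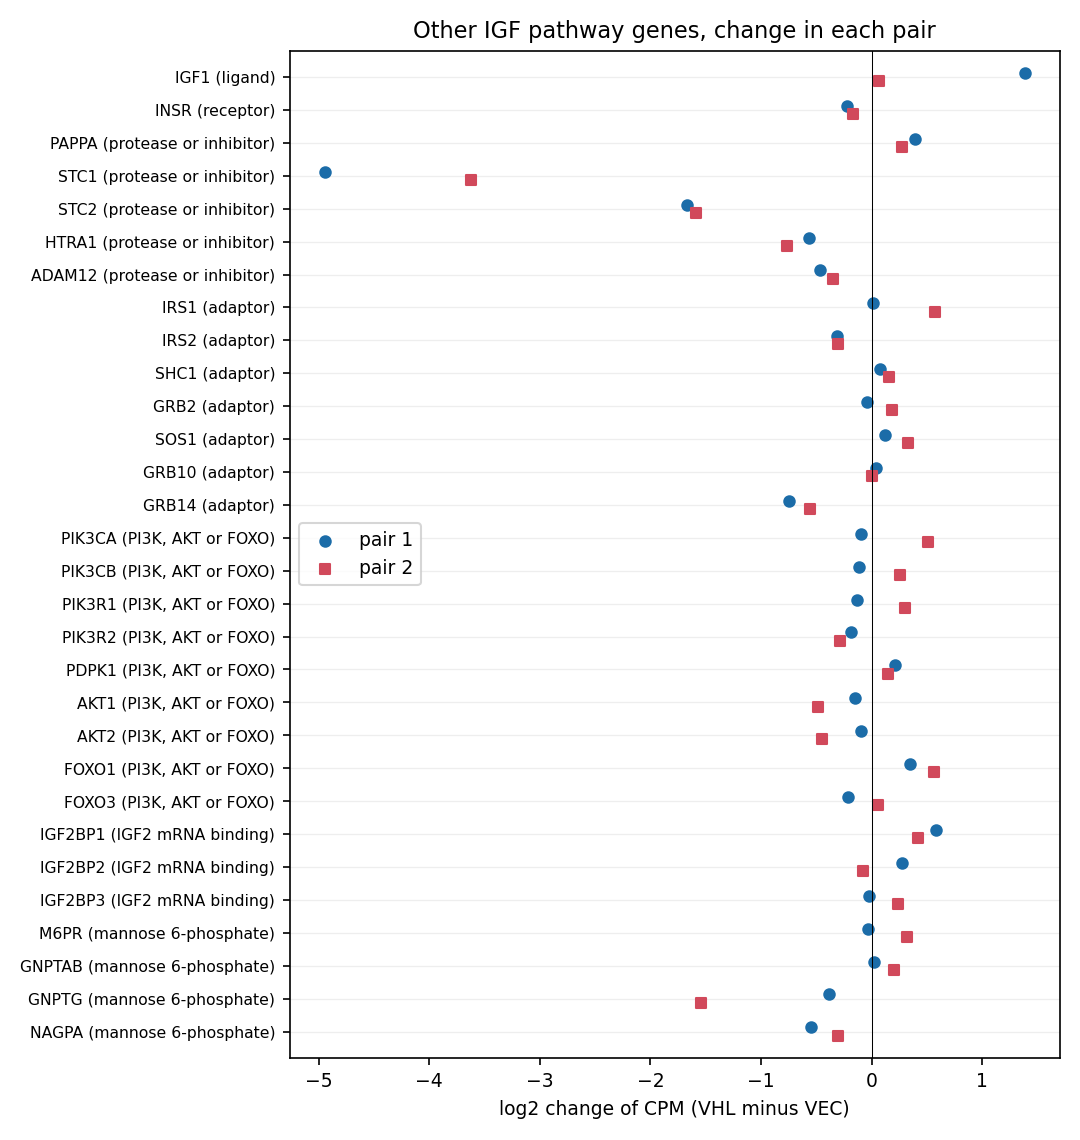
Log2 change of CPM (horizontal axis, VHL minus VEC) of the 30 tested genes of the IGF pathway list in pair 1 (blue circles) and pair 2 (red squares), ordered by role. STC1 and STC2 lie far to the left in both pairs. Of the 30 genes 12 were lower and 10 higher in both, against 6097 lower and 5713 higher in both among all 24417 tested genes. These sets are unlike, because the 24417 include noncoding genes, some with a pair 1 change of 0 that counts in neither direction. The list holds protein-coding genes, and their own background was not counted.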

How the data were processed

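RNA was measured in 2 VEC and 2 VHL libraries of UM-RC-2. The authors deposited raw read counts for each gene symbol, made from hg19 alignments per the file headers with featureCounts per the submitters' processing notes. The aligner, annotation, strand setting and treatment of reads in several genes are not given in the sources used here. The H3K27ac tables were not used here, because their regions carry no positions. Tests used edgeR 4.0.16 under R 4.3.3 (filterByExpr, TMM, glmQLFit, glmQLFTest, two-sided). The main design had group alone, and the replicate number was added as a block. DESeq2 1.42.0, other scalings and filters, protein-coding genes alone and leaving out each library were alternatives. SE was taken from each change and its F statistic, for which edgeR shares variance across genes. Pair changes used a prior count of 2. Ratio intervals are exact conditional binomial intervals at 95%.

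RefSeq (GRCh38.p14) gave gene classes and neighbours and matched 97.8% of symbols. All members were named, and of the pathway list the genes called in the blocked fit. Members and lists were chosen with earlier results of these data known. The other pathway genes named and the flanking genes were chosen after values were seen. Same-numbered libraries deviated together from their group means (r = 0.982 across 21673 genes), and the molecule label differs with the number. 1 gene beyond the 36 of the pathway list is not reported here.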

Additional observations from a re-analysis of the deposited data

How the results depend on the processing

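The replicate block decided the calls. All genes called numbered 0 with group alone, 756 with the replicate block, 993 with the block and protein-coding genes, 999 with the block and DESeq2 size factors, 762 with the block and the stricter filter (a mean of at least 50 counts), 1203 with the block in DESeq2 and 6 in DESeq2 without the block. Members called numbered 0 with group alone and, with the block, 2, or 1 (IGFBP3) under the stricter filter and in DESeq2. Pathway genes called numbered 0 with group alone, 2 with the block, 5 among protein-coding genes, 4 with DESeq2 size factors, 3 under the stricter filter, 4 in blocked DESeq2 and 1 in DESeq2 without the block. IGFBP3 was called in each of the 5 blocked fits run, with log2 changes of -3.06 to -3.02.

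Leaving out a library mixes the replicates, and each such edgeR fit called 0 genes (1 to 11 at an unadjusted p under 0.05), with the lone library assumed to vary like the others. It moved the median of all genes to between -0.65 and 0.66, that of the binding proteins to between -1.31 and 0.29, and that of the receptors to between -0.17 and 0.79. Over these 4 fits the log2 change ran from -0.49 to 0.88 for IGFBP2, from -1.38 to 1.24 for IGFBP4, from -1.67 to 1.67 for IGFBP6, from -0.95 to 0.81 for IGFBP7 and from -0.51 to 1.00 for IGF1R. The sign turned for IGFBP2 without VHL replicate 1 (-0.49) or VEC replicate 2 (-0.25). It turned without VEC replicate 1 or VHL replicate 2 for IGFBP4 (-0.24 and -1.38), IGFBP6 (1.67 and 0.62), IGFBP7 (0.81 and 0.25) and IGF1R (-0.48 and -0.51). IGF1R was also -0.0068 with DESeq2 size factors and in DESeq2, and -0.025 with protein-coding genes alone. IGFBP3 stayed negative, from -3.72 (without VHL replicate 1) to -2.26 (without VEC replicate 1), and IGFBP5 from -3.96 (without VHL replicate 2) to -2.47 (without VEC replicate 2), against -3.07 and -3.03 with all libraries. IGF2R ran from 0.15 to 0.58, against 0.33. A blocked fit without 1 library leaves no residual degrees of freedom and was not run. IGFBP1, IGF2, IGFBP4 and IGFBP5 are limited by depth.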

Other observations

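Levels of several members differed more between the replicate numbers, which the labels give as total RNA and polyA RNA against the order of their protein-coding shares, than between VEC and VHL. IGFBP6 measured 23.6 CPM in VEC of replicate 1 and 3.99 CPM in VEC of replicate 2, and IGFBP7 measured 184 and 59.3 CPM. IGF1R went the other way, at 14.1 and 38.2 CPM. The ligand IGF1 had 11 and 25 counts in VEC and VHL of replicate 1 but 1148 and 1079 in replicate 2 (0.475 and 1.34 CPM against 25.2 and 26.4 CPM). Its log2 change was 1.38 in pair 1 and 0.07 in pair 2, and it was not called in the blocked fit (edgeR adjusted p = 0.725). IGF2BP1, an RNA-binding protein of IGF2 transcripts, measured 38.5 and 57.5 CPM in replicate 1 and 40.8 and 54.7 CPM in replicate 2, with a blocked log2 change of 0.50 ± 0.21 (SE, n = 2 per group, edgeR adjusted p = 0.238).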
